A study of Rattus norvegicus with 6 samples.

Results

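The genes described here carry out or feed mitochondrial fatty acid oxidation and make or use ketone bodies. They were taken by gene symbol from a list of 34 names. Of these, 32 were found by symbol among the 32623 genes of the table, and Cd36 and Eci2 had no row under those names. RNA sequencing of rat liver was done on 6 libraries, 3 from livers embolized with blank microspheres (GM, the control group) and 3 from livers embolized with ZnS microspheres (GZM). Both groups therefore carried an embolization, and no liver without one was analysed here. The labels used here give no strain, sex, age, dose, time after embolization, or place within the liver where the tissue was cut. They call the libraries replicate biosamples and do not say that each came from its own animal, so the p-values measure the spread between these samples, which may be technical. Library totals ran from 13443115 to 16604067 counts. Of 24 hepatocyte genes 23 were found, and together they took 2.94% to 17.1% of the counts of a library. None of the 23 was at 0 in every library. That also held for the 8 striated muscle markers found, so it does not by itself identify the tissue.

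Fatty acids enter hepatocytes with the help of transport proteins, are bound in the cytosol and are activated to acyl-CoA. The carnitine shuttle then carries long chains across the inner mitochondrial membrane, where the oxidation spiral shortens them through dehydrogenation, hydration, a second dehydrogenation and thiolysis, and passes electrons to the respiratory chain. In liver much of the resulting acetyl-CoA is turned into acetoacetate and 3-hydroxybutyrate, which other tissues burn. The enzyme that starts their use, encoded by Oxct1, is scarce in normal hepatocytes.

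Most of these genes were higher in GZM liver, and the ketone-using gene Oxct1 was lower. On counts scaled by edgeR's TMM factors, which equalize libraries on the middle of their genes, 27 of the 32 genes rose and 1, Oxct1, fell at an adjusted p under 0.05. Of all 14298 genes tested, 22.2% rose and 21.7% fell, or 44% in either direction. The median log2 fold change of the 32 genes was 1.75, with a range of -1.70 to 3.38, against -0.09 for all genes tested. Cpt1b, Acad9, Echs1 and Bdh2 did not pass. In 30 of the 32 genes the 3 GZM libraries lay entirely on one side of the 3 GM libraries, as did 58.1% of all genes tested. The exceptions were Cpt1b and Echs1. The 32 genes together took 0.316%, 0.274% and 0.393% of the counts in GM 1 to 3, and 0.811%, 0.725% and 0.627% in GZM 1 to 3.

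The count of genes depends on how libraries are put on a common scale. When libraries were scaled by their totals, the median of all genes tested moved by -0.84 to -0.92, so that 9.2% of all genes rose and 59.5% fell. On that scale 20 of the 32 genes rose, Oxct1 fell, and the median of the 32 was 0.93. The 7 genes that lost their call were Acsl1, Acsl3, Acsl5, Slc22a5, Hadha, Hadhb and Acat1. The other 20 were called higher in the main edgeR test and in each of the 12 alternative fits, DESeq2 among them.

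**Figure D1:**
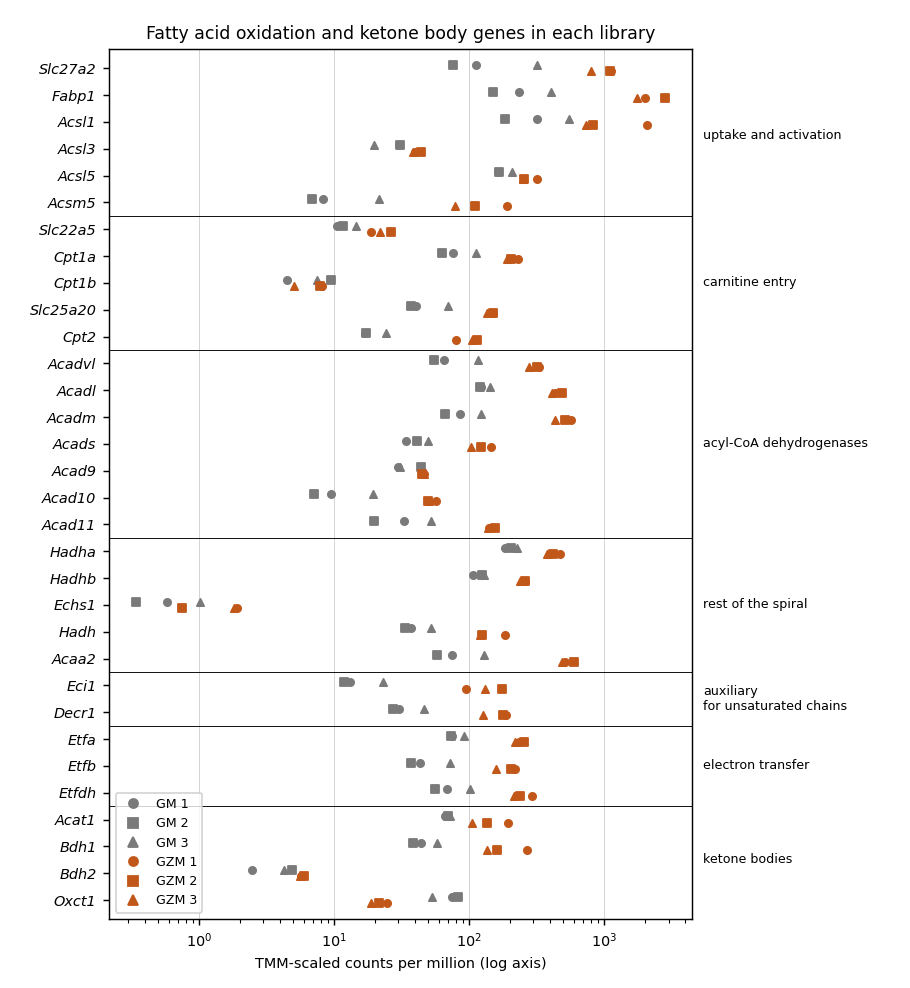
CPM, counts per 1000000 after TMM scaling (log axis), of the 32 genes in each library, grouped by role. Grey symbols are the 3 GM libraries and orange symbols the 3 GZM libraries. The GZM symbols lie to the right in most rows, to the left for Oxct1, and among the GM symbols for Cpt1b and Echs1.

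Levels of hepatocyte genes moved with these genes, and their part in the results was not tested. Of 23 hepatocyte markers, 22 rose in GZM (median log2 fold change 2.53), and Cyp2e1 did not pass. Of all genes tested, 22.2% rose and 21.7% fell, the shares to set beside the counts of each marker list here. Counts near those shares, in lists this short, are not a result about a cell type. The hepatocyte list took 4.14%, 2.94% and 9.4% of the counts in GM 1 to 3 and 16.5%, 17.1% and 15.8% in GZM 1 to 3. Without GM 1 the number of hepatocyte markers called higher was 12. In bulk tissue, fewer cells of a type and less RNA per cell cannot be told apart. All 10 markers of dividing cells fell, from a summed 479 to 1288 CPM in GM to 174 to 196.0 in GZM. Stellate cell and fibroblast markers summed to 3491 to 9583 CPM in GM and 1804 to 4124 in GZM, with 1 of 7 higher and 1 of 7 lower. Macrophage markers summed to 1007 to 2460 in GM and 1165 to 1571 in GZM, with 2 of 8 higher and 4 of 8 lower. Endothelial markers summed to 194 to 310.4 CPM in GM and 342 to 409 in GZM, with 4 of 7 higher and 1 of 7 lower. T and NK cell markers summed to 319.7 to 589 CPM in GM and 97.8 to 264 in GZM, with 2 of 8 lower. Adipocytes and striated muscle also oxidize or handle fatty acids. Adipocyte markers summed to 40.3 to 94.8 CPM in GM and 124 to 156 in GZM, with 1 higher and 1 lower of 3 tested and Lep at 0 in all 6 libraries. That sum rested mainly on Fabp4 and Cidec. Cidec had 134, 120 and 337 counts in GM 1 to 3 and 629, 843 and 919 in GZM 1 to 3. Pparg had 205, 451 and 204 in GM and 34, 22 and 50 in GZM. Adipoq had at most 6 counts in a library and Plin1 at most 1, so the sums do not measure adipocytes. Striated muscle markers summed to 5.66 to 10.2 in GM and 5.42 to 7.35 in GZM, with 1 higher of 3 tested.

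The GM libraries differed among themselves. GM 3, which had the largest hepatocyte share of its group, was the highest GM library for 27 of the 32 genes, against 38% of all genes tested. The order GM 3, then GM 1, then GM 2 held in 20 of the 32, against 24.9% of all genes. Leaving out 1 library at a time gave 23 to 28 genes higher and 1 lower, and leaving out both GM 3 and GZM 1 gave 27 higher and 1 lower.

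Promoters of 4 genes are printed because they show the range of the responses, from the largest rise (Acsm5) and the ketone-making Bdh1 to the fall of Oxct1, together with the intergenic stretch that Hadha shares with its partner Hadhb. Each is the 250 bases before the start of the gene in RefSeq's annotation of rat assembly GRCr8, written 5′ to 3′ on the gene's own strand. The positions are chr1:183302259-183302508 on the plus strand for Acsm5, chr11:82842637-82842886 on the minus strand for Bdh1, chr2:54963714-54963963 on the plus strand for Oxct1 and chr6:31907551-31907800 on the plus strand for Hadha. Capitals mark the nuclear receptor core AGGTCA and the GC box GGGCGG, on either strand.
Acsm5: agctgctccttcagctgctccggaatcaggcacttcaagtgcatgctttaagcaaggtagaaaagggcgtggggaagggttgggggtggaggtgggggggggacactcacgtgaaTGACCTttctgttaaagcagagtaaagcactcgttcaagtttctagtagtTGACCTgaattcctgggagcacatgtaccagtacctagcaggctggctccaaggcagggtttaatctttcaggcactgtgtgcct
Bdh1: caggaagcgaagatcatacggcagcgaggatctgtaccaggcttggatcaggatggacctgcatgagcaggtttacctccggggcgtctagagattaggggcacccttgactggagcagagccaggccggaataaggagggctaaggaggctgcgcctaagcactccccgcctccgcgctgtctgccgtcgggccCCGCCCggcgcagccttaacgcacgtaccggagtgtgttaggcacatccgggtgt
Oxct1: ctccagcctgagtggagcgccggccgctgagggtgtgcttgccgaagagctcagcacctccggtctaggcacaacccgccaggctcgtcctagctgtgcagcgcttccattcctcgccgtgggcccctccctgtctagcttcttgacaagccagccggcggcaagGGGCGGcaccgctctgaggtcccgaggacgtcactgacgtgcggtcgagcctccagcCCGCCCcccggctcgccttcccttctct
Hadha: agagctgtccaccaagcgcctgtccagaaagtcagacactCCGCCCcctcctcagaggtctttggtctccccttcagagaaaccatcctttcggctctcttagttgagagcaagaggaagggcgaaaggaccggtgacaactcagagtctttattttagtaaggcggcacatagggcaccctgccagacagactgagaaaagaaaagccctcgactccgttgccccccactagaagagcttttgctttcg
The Acsm5 stretch held the receptor core at 135 and 85 bases before the start, on the opposite strand, and no GC box. The Bdh1 stretch held a GC box at 55 bases, the Oxct1 stretch at 85 and 28 bases, and the Hadha stretch at 210 bases before the start.

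Promoters of 30 of the 34 listed genes were in the RefSeq table, which covers 250 bases before to 50 after each start. The receptor core AGGTCA was found on either strand in 9 of the 30, or 30%, against 16.2% of the table's 33469 promoters. Exact tandem copies of AGGTCA separated by 1 base, the arrangement bound by Ppara with its partner Rxra, were in 0 of 30 and in 0.0538% of all promoters. Copies with a mismatch were not searched for, so the 0 of 30 does not show that such sites are absent. The GC box GGGCGG was in 19 of 30, or 63.3%, against 33.1%. CCAAT was in 9 of 30, or 30%, against 37.5%, and TATAAA in 5 of 30, or 16.7%, against 14.2%. The median GC content of the 30 promoters was 58.6% against 51.7% over the table. Hadha and Hadhb start 301 bases apart on opposite strands of chromosome 6, so their windows share 200 bases. These matches are descriptions of the letters in these windows.

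Uptake and activation rose in all 6 genes found, with a median log2 fold change of 2.18. Of all genes tested 22.2% rose, the share to set beside this count and those of the role groups below. Fabp1, the liver fatty acid-binding protein, was measured at 235, 150.1 and 405 CPM in GM 1 to 3 and at 2023, 2832 and 1748 in GZM 1 to 3. Every GZM library was above every GM library, and the rise was 8.35-fold (log2 3.06 ± 0.42 SE, n = 3 per group, adjusted p = 0.00253 by edgeR). Slc27a2, a very-long-chain acyl-CoA synthetase and fatty acid transporter, was at 112, 75.8 and 316 in GM and at 1119, 1102 and 800.5 in GZM. GM 3 was the high control here, and the rise of 5.997-fold (log2 2.58 ± 0.53, adjusted p = 0.00700 by edgeR) became a log2 fold change of 3.46 without that library. Acsm5, a mitochondrial medium-chain acyl-CoA synthetase, went from 8.29, 6.85 and 21.7 to 192, 112 and 78.4. Its 10.4-fold rise had the largest log2 fold change of the 32 genes (3.38 ± 0.52, adjusted p = 0.00313 by edgeR), and 4.11 without GM 3.

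The 3 long-chain acyl-CoA synthetases differed in size and in how firmly they were called. Acsl1, the main such enzyme of liver, was at 317, 186 and 553 CPM in GM and at 2079, 824 and 733 in GZM. GZM 1 stood far above the other GZM libraries, so the log2 fold change of 1.78 ± 0.53 (adjusted p = 0.0277 by edgeR) was 1.15 without it (adjusted p = 0.0767 by edgeR). The call was also lost without GM 1 (adjusted p = 0.0925 by edgeR) and without GM 2 (adjusted p = 0.073 by edgeR). Acsl3, which serves lipid droplet growth, was at 30.3, 31.1 and 19.7 in GM and at 39.5, 44.1 and 38.8 in GZM. Acsl5, of mitochondria and endoplasmic reticulum, was at 164, 168 and 209 in GM and at 319, 257 and 251 in GZM. Both rises were small (log2 0.59 ± 0.20 and 0.61 ± 0.19, adjusted p = 0.0435 and 0.0342 by edgeR), and with library totals the values turned to -0.27 and -0.21. The Acsl3 call was lost without GM 1, GZM 1, GZM 2 or GZM 3 (adjusted p = 0.0697, 0.0766, 0.14 and 0.0862 by edgeR). The Acsl5 call was lost without GM 1, GM 2, GZM 1, GZM 2 or GZM 3 (adjusted p = 0.125, 0.0773, 0.0991, 0.085 and 0.0691 by edgeR). With no low-count filter the Acsl3 and Acsl5 calls were also lost (adjusted p = 0.0538 and 0.0589 by edgeR).

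Carnitine entry rose in 4 of 5 genes, with a median log2 fold change of 1.31. Cpt1a, the liver form of the outer-membrane carnitine palmitoyltransferase and the controlled step of entry, was at 76.1, 63.4 and 112 CPM in GM and at 230.0, 205 and 191 in GZM. The groups did not overlap, and the rise was 2.49-fold (log2 1.31 ± 0.24, adjusted p = 0.00483 by edgeR), or a log2 fold change of 0.51 with library totals (adjusted p = 0.0491 by edgeR). Cpt2, the inner-membrane partner that hands the chain back to coenzyme A, went from 16.9, 17.2 and 24.2 to 80.1, 115 and 106. Its rise of 5.16-fold (log2 2.37 ± 0.22, adjusted p = 0.00185 by edgeR) was the largest of the shuttle. Slc25a20, the carnitine-acylcarnitine carrier, went from 40.8, 37.3 and 69.7 to 150.3, 150.9 and 135 (log2 1.56 ± 0.25, adjusted p = 0.00356 by edgeR).

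Slc22a5, the cell-surface carnitine transporter, was at 10.6, 11.7 and 14.5 CPM in GM and at 19.0, 26.6 and 21.9 in GZM. Its log2 fold change of 0.88 ± 0.21 (adjusted p = 0.0128 by edgeR) was 0.05 with library totals, and the call was lost without GM 1 (adjusted p = 0.0511 by edgeR) or GZM 2 (adjusted p = 0.0637 by edgeR). Cpt1b, the muscle form, did not follow Cpt1a. It was at 4.49, 9.53 and 7.45 in GM and at 8.22, 7.92 and 5.03 in GZM, with overlapping groups and a log2 difference of -0.03 ± 0.34 (adjusted p = 0.959 by edgeR).

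**Figure D2:**
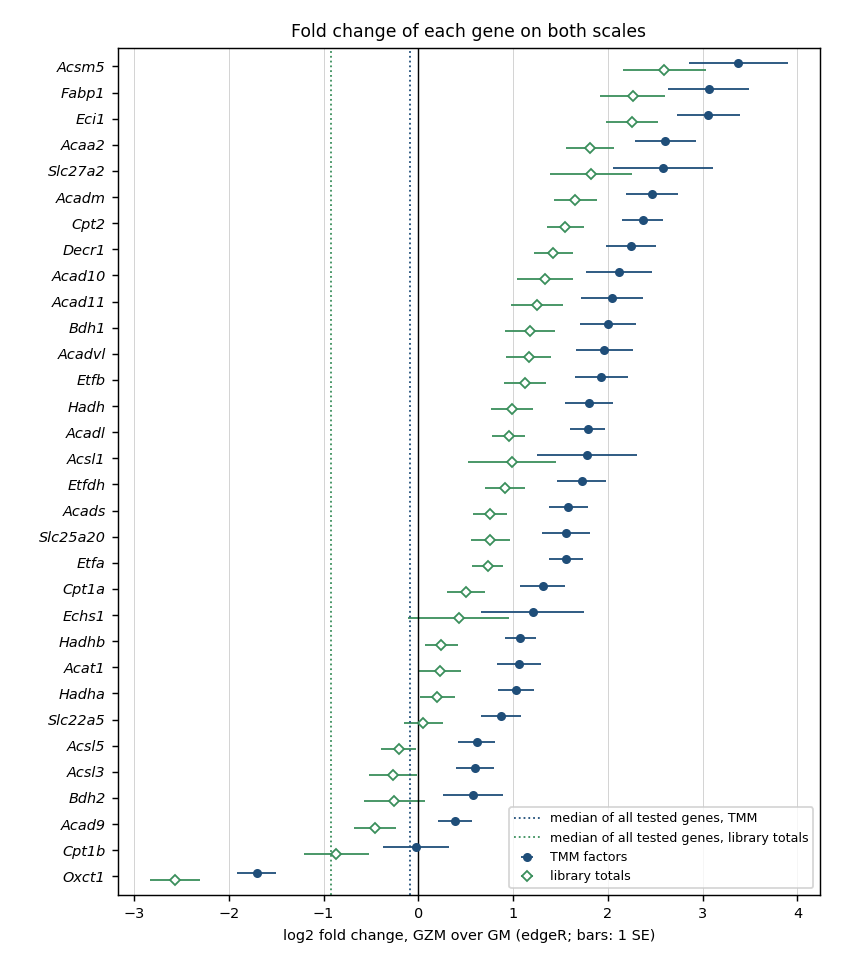
Log2 fold change, GZM over GM, of the 32 genes from edgeR with TMM factors, with standard errors, beside the value with library totals. Values run from -1.70 for Oxct1 to 3.38 for Acsm5, and the library-total values lie to the left of the TMM values.

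Among the acyl-CoA dehydrogenases, which begin each turn of the spiral, 6 of 7 rose, with a median log2 fold change of 1.96. The medium-chain enzyme Acadm rose most. It was at 86.2, 66.4 and 123 CPM in GM and at 573, 513 and 436 in GZM, a 5.53-fold rise (log2 2.47 ± 0.27, adjusted p = 0.00204 by edgeR). Very-long-chain Acadvl went from 64.8, 55.1 and 117 to 327, 319.6 and 276 (log2 1.96 ± 0.30, adjusted p = 0.00309 by edgeR). Long-chain Acadl was even within each group, at 123, 120.1 and 143 in GM and 431, 488 and 411 in GZM (log2 1.79 ± 0.19, adjusted p = 0.00192 by edgeR). Short-chain Acads went from 34.1, 40.9 and 49.7 to 147, 123 and 104 (log2 1.58 ± 0.21, adjusted p = 0.00239 by edgeR). In all 4 chain-length enzymes the lowest GZM library lay above the highest GM library. Groups were apart, in either direction, in 58.1% of all genes tested.

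Acad10 and Acad11, relatives with less usual substrates, rose by log2 2.12 ± 0.35 and 2.05 ± 0.33 (adjusted p = 0.00369 and 0.00342 by edgeR). Acad9, which is better known as an assembly factor of respiratory complex I, stood at 30.0, 44.2 and 31.1 CPM in GM and at 46.4, 45.0 and 46.3 in GZM. The groups did not overlap, but GM 2 reached nearly the GZM level, and the log2 fold change was 0.39 ± 0.18 (adjusted p = 0.116 by edgeR). Without GM 2 it was 0.59 (adjusted p = 0.0154 by edgeR), and with library totals it was -0.46.

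In the rest of the spiral 4 of 5 genes rose, with a median log2 fold change of 1.21. Hadha and Hadhb encode the subunits of the mitochondrial trifunctional protein. Hadha was at 186, 206 and 229 CPM in GM and at 474, 417 and 376 in GZM (log2 1.03 ± 0.19, adjusted p = 0.00525 by edgeR). Hadhb was at 107, 125 and 129 in GM and at 259, 261 and 240.3 in GZM (log2 1.08 ± 0.17, adjusted p = 0.00311 by edgeR). Both kept a positive value with library totals, 0.20 and 0.24, but lost the call (adjusted p = 0.351 and 0.231 by edgeR).

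Hadh, the short-chain hydroxyacyl-CoA dehydrogenase, rose from 37.4, 33.4 and 52.6 CPM to 186, 124 and 121 (log2 1.80 ± 0.25, adjusted p = 0.00253 by edgeR). Acaa2, the mitochondrial thiolase that closes the turn, rose from 75.1, 58.2 and 129 to 512, 597 and 488. Its rise of 6.10-fold (log2 2.61 ± 0.32, adjusted p = 0.00227 by edgeR) was the largest of the 5. Echs1, the short-chain enoyl-CoA hydratase, had only 12, 8 and 20 counts in GM and 19, 8 and 23 in GZM. Its log2 fold change of 1.21 ± 0.55 did not pass (adjusted p = 0.107 by edgeR), but did without GM 3 (1.73, adjusted p = 0.0435 by edgeR). A second row of the table with the same orthology entry, LOC100911186, held 6, 17 and 19 counts in GM and 26, 21 and 8 in GZM. Reads that fit more than 1 such copy may be split between them or not counted, so the Echs1 values are uncertain.

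Both auxiliary enzymes for unsaturated chains that had a row rose. Eci1, which moves double bonds into place for the spiral, was at 13.3, 11.9 and 23.1 CPM in GM and at 94.4, 176 and 132 in GZM, an 8.34-fold rise (log2 3.06 ± 0.33, adjusted p = 0.00202 by edgeR). GM 3 and GZM 1 were the closest libraries of the groups, and without both the log2 fold change was 3.69. Decr1, the dienoyl-CoA reductase, rose from 30.5, 27.5 and 46.7 to 190, 178 and 127 (log2 2.24 ± 0.26, adjusted p = 0.00215 by edgeR). Eci2 itself had no row, but Eci3, a row with its orthology entry that was singled out after its values were seen, rose by log2 2.34 ± 0.35 (adjusted p = 0.00294 by edgeR).

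Cd36, the plasma membrane fatty acid translocase, likewise had no row of its own. The 4 rows with its orthology entry, looked up after the values were seen, summed to 770, 394 and 764 counts in GM and 374, 470 and 565 in GZM. They did not move one way: RGD1565355 had a log2 fold change of 1.22 (adjusted p = 0.0292 by edgeR, and 0.309 with library totals). LOC103690020 had one of -1.75 (adjusted p = 0.0164 by edgeR, and 0.00184 with library totals). AABR07059308.1 had one of -0.67 (adjusted p = 0.0968 by edgeR), or -1.49 with library totals (adjusted p = 0.00273 by edgeR). RGD1565355 spans the positions of LOC103690020 and AABR07059308.1 on the same strand. Reads that fit more than 1 of these rows may be split between them or not counted, so the Cd36 values are uncertain. The last row, AABR07059372.2, held 0 counts in every library.

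Electron transfer from the dehydrogenases to the respiratory chain rose in all 3 genes, with a median log2 fold change of 1.72. Etfa, a subunit of the electron transfer flavoprotein, went from 74.7, 73.8 and 91.9 CPM to 234, 257 and 218 (log2 1.56 ± 0.18, adjusted p = 0.00208 by edgeR). Etfb, the other subunit, went from 43.2, 37.4 and 72.6 to 219, 205 and 159 (log2 1.93 ± 0.28, adjusted p = 0.00277 by edgeR). Etfdh, which passes these electrons to ubiquinone, went from 69.0, 56.1 and 101 to 292, 238 and 217 (log2 1.72 ± 0.26, adjusted p = 0.00289 by edgeR). In each of the 3 genes the groups were apart, as in 58.1% of all genes tested.

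The ketone body genes divided. Bdh1, the mitochondrial 3-hydroxybutyrate dehydrogenase, was at 44.2, 38.3 and 58.3 CPM in GM and at 267, 162 and 135 in GZM, a 4.01-fold rise (log2 2.00 ± 0.29, adjusted p = 0.00283 by edgeR). Acat1, the mitochondrial acetoacetyl-CoA thiolase, was nearly level among the GM libraries at 66.6, 70.4 and 71.9 and stood at 195, 137 and 106 in GZM (log2 1.07 ± 0.23, adjusted p = 0.00882 by edgeR), but at log2 0.22 with library totals (adjusted p = 0.4 by edgeR). Bdh2, a cytosolic relative, was low, at 2.46, 4.89 and 4.27 in GM and 5.72, 6.03 and 5.58 in GZM (log2 0.57 ± 0.32, adjusted p = 0.175 by edgeR).

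Oxct1, the transferase by which cells activate acetoacetate for use, went the other way. It had 1546, 1964 and 1041 counts in GM and 247, 227 and 240 in GZM, or 74.6, 83.6 and 53.5 CPM in GM and 24.8, 21.4 and 18.8 in GZM. The highest GZM library was below the lowest GM library. The level was 3.26-fold lower in GZM (log2 -1.70 ± 0.21, adjusted p = 0.00226 by edgeR), and across the 12 alternative fits the value ran from -2.57 to -1.56 with an adjusted p of at most 0.0146 by edgeR or DESeq2.

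**Figure D3:**
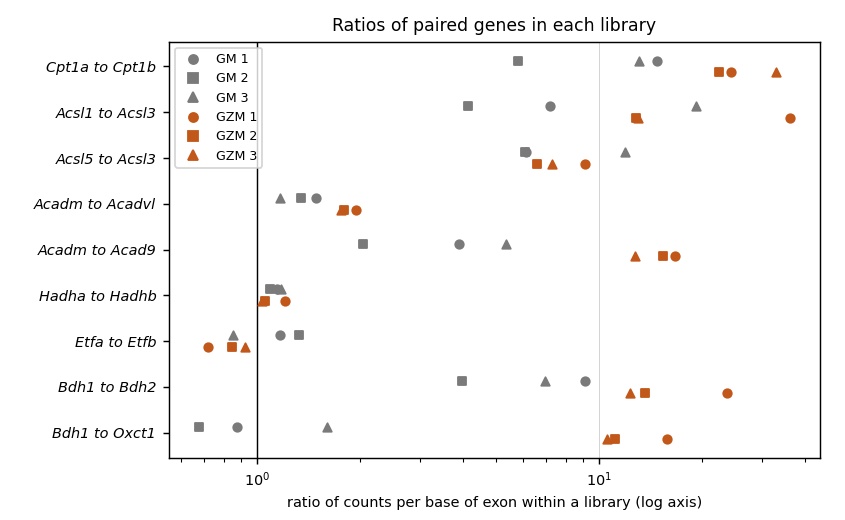
Length-corrected ratio of paired genes within each library (log axis), GM in grey and GZM in orange. The Bdh1 to Oxct1 ratio shows the widest gap between groups, and the Hadha to Hadhb ratio stays near 1 in every library.

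Ratios of 2 genes within a library, per length of exon, do not depend on how libraries are scaled. Of 10 pairs chosen by role, 9 are given here, of which 5 had groups that did not overlap and 4 had groups that did. With 3 libraries against 3 the smallest two-sided exact permutation p is 0.1, so no pair could pass, and the 5 separated pairs had an adjusted p of 0.167 over the 10 by that exact permutation test. Bdh1 stood at 0.873, 0.675 and 1.61 times Oxct1 in GM and at 15.8, 11.1 and 10.6 times in GZM, a shift of 12.5-fold.

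Between forms of the same enzyme, Cpt1a stood at 14.8, 5.81 and 13.1 times Cpt1b in GM and 24.3, 22.5 and 33.0 times in GZM. Bdh1 stood at 9.10, 3.98 and 6.95 times Bdh2 in GM and at 23.7, 13.6 and 12.3 times in GZM. Among the dehydrogenases the ratio of Acadm to Acad9 went from 3.89, 2.04 and 5.34 to 16.7, 15.5 and 12.7, and that of Acadm to Acadvl from 1.49, 1.34 and 1.17 to 1.95, 1.79 and 1.76. The subunit pairs overlapped between groups: Hadha to Hadhb was 1.15, 1.09 and 1.17 in GM and 1.21, 1.06 and 1.03 in GZM. Etfa to Etfb, Acsl1 to Acsl3 and Acsl5 to Acsl3 also overlapped.

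On the deposited FPKM scale, which corrects for exon length and uses library totals, Fabp1 was the most abundant of the 32 in both groups, at 702 ± 270 (SD, n = 3) in GM and 3367 ± 700.4 in GZM. Slc27a2 moved from rank 9 to rank 2 (71.8 ± 47.1 to 254 ± 34.8 FPKM) and Acaa2 from rank 10 to rank 3 (69.6 ± 21.2 to 244 ± 15.4). In GZM their neighbours Acadl (226 ± 10.5) and Acsl1 (225 ± 138) were within the spread, so ranks 2 to 5 are not ordered beyond it. The spread of Acsl1 also took in Acadm (194.1 ± 21.05) and Etfb (159.6 ± 19.95) at ranks 6 and 7. In GM, Etfa (78.8 ± 1.13), Etfb (73.2 ± 18.3) and Acadm (61.5 ± 12.7) lay within the spread of Slc27a2 and Acaa2. Their starting ranks are therefore not ordered beyond it either. Eci1 moved from rank 22 to rank 12, at 20.6 ± 5.28 and 98.2 ± 27.6 FPKM. Oxct1 moved from rank 19 (28.8 ± 8.80) to rank 28 (4.86 ± 0.57). Cpt1b and Echs1 held the last 2 ranks in both groups.

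The 32 genes were also set against the summed hepatocyte markers of the same library. The median log2 difference of these ratios was -0.84, with a range of -4.28 to 0.88, against -2.67 for all genes tested. In 14 genes every GZM library was below every GM library, as in 88.8% of all genes, 15 overlapped, and 3 genes (Slc27a2, Fabp1 and Acsm5) were above, as in 0.874% of all genes. Acsm5 stood at 0.286, 0.330 and 0.270 counts per 1000 hepatocyte-list counts in GM and at 0.867, 0.466 and 0.392 in GZM. The other gaps were narrow. For Slc27a2 the highest GM value was 3.942 (GM 3) and the lowest GZM value 4.005 (GZM 3). For Fabp1 these were 8.1 (GM 1) and 8.745 (GZM 3). Acadm overlapped, at 2.97, 3.20 and 1.53 in GM and 2.58, 2.14 and 2.18 in GZM, and Cpt1a was lower, at 2.62, 3.06 and 1.40 in GM and 1.04, 0.857 and 0.957 in GZM. Oxct1 had the lowest difference, at 2.57, 4.03 and 0.667 in GM and 0.112, 0.0894 and 0.0943 in GZM. With 3 libraries against 3 the smallest two-sided exact permutation p is 0.1, so none of these ratios could pass. The lowest adjusted p was 0.188 by that exact permutation test. Without Alb in the list the Slc27a2 difference was 0.04 in place of 0.25.

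**Figure D4:**
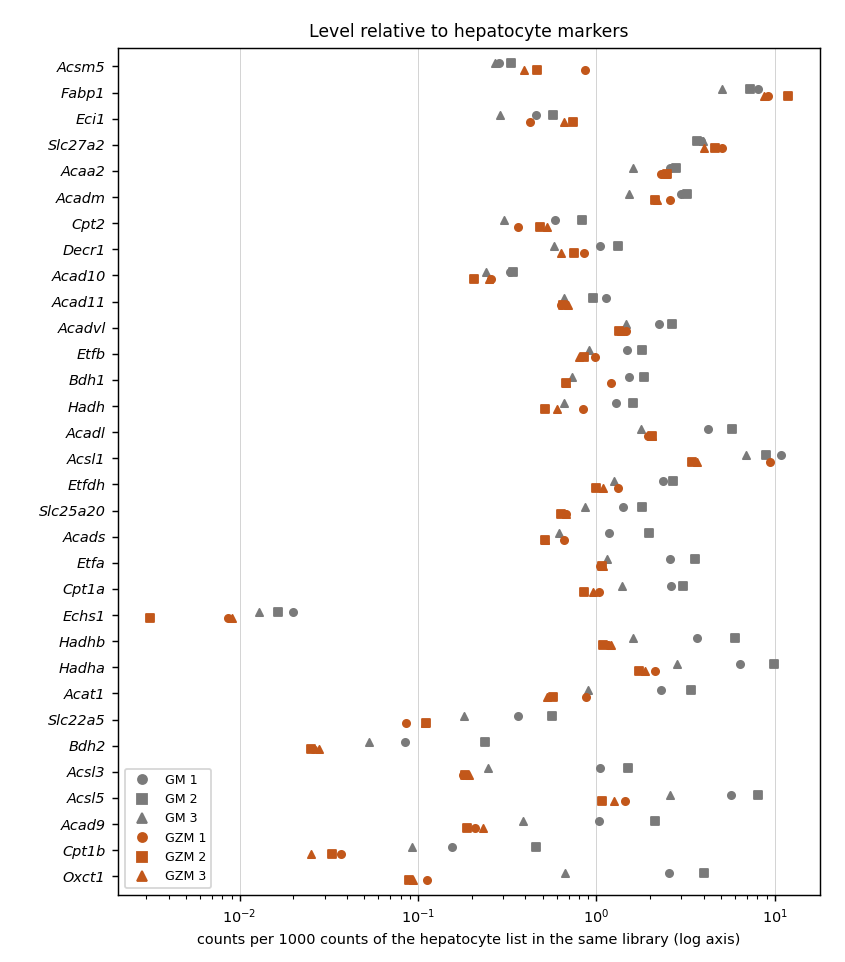
Counts of each of the 32 genes per 1000 counts of the hepatocyte list in the same library (log axis), ordered by the difference between groups. Acsm5 and Fabp1 at the top lie to the right in GZM, Oxct1 at the bottom lies to the left, and many rows between them overlap or lie to the left.

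Other genes of the pathway were read from a list of 51, of which 48 had a row and 47 were tested. Of these 31 rose, 2 fell (Cpt1c and Fabp5) and 14 did not pass, with a median log2 fold change of 1.41. With library totals 23 rose and 8 fell. Of all genes tested, 22.2% rose and 21.7% fell, and with library totals 9.2% rose and 59.5% fell. Ehhadh, the peroxisomal bifunctional enzyme, was at 28.5, 18.3 and 71.0 CPM in GM and at 282.5, 323 and 243.5 in GZM, groups that did not overlap. It rose 7.21-fold (log2 2.85 ± 0.48, adjusted p = 0.00384 by edgeR).

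Among regulators of the pathway, Ppara, the nuclear receptor for fatty acids, was at 2.41, 2.64 and 2.98 CPM in GM and at 6.32, 6.88 and 6.52 in GZM. It rose by log2 1.29 ± 0.25 (adjusted p = 0.00615 by edgeR), but the value was 0.47 with library totals (adjusted p = 0.15 by edgeR). Its partner Rxra had a log2 fold change of 1.14 (adjusted p = 0.0187 by edgeR), with the call lost under library totals (adjusted p = 0.304 by edgeR), without GM 1 (0.0624 by edgeR) and without GZM 1 (0.0545 by edgeR). The coactivator Ppargc1a was under 2 CPM in every library, with a log2 fold change of 0.82 ± 0.70 (adjusted p = 0.37 by edgeR).

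The genes known as Ppara targets included Pdk4, a kinase that holds back pyruvate oxidation (log2 1.82, adjusted p = 0.00253 by edgeR), and Fgf21, a fasting hormone of liver (log2 2.05, adjusted p = 0.00359 by edgeR). Both rose. Angptl4, an inhibitor of lipoprotein lipase, was at 40.0, 22.5 and 65.8 CPM in GM and at 76.0, 89.5 and 77.5 in GZM. Its log2 fold change of 0.92 did not pass (adjusted p = 0.06 by edgeR). It passed in 5 of the 12 alternative fits, with an adjusted p of 0.0397 by DESeq2 and, by edgeR, 0.0476 with a replicate block, 0.0463 with no low-count filter, 0.00283 without GM 3 and 0.0025 without both GM 3 and GZM 1. With library totals its log2 fold change was 0.13 (adjusted p = 0.7 by edgeR), and the groups overlapped.

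Malonyl-CoA blocks Cpt1a, and the genes that make and remove it were measured. Acacb, the carboxylase at the mitochondrial surface, rose by log2 2.54 (adjusted p = 0.00356 by edgeR), and Mlycd, which removes malonyl-CoA, by log2 2.34 (adjusted p = 0.00249 by edgeR). Acaca, the cytosolic carboxylase of fatty acid synthesis, was at 54.0, 58.9 and 56.1 CPM in GM and 56.2, 53.7 and 73.7 in GZM (log2 0.12, adjusted p = 0.571 by edgeR). With library totals its value was -0.71 (adjusted p = 0.0162 by edgeR). Cpt1c, the brain form of the transferase, fell by 1.30 on the log2 scale (adjusted p = 0.0198 by edgeR), and the call was lost without GM 2, GZM 2 or GZM 3 (adjusted p = 0.0523, 0.0797 and 0.0711 by edgeR).

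The ketone body exporter Slc16a1 and the cytosolic acetoacetyl-CoA synthetase Aacs, another way to use acetoacetate, had log2 fold changes of 0.43 (adjusted p = 0.169 by edgeR) and -0.69 (adjusted p = 0.117 by edgeR). With library totals Aacs had a value of -1.55 (adjusted p = 0.00579 by edgeR).

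Genes of mitochondrial mass and import were read beside the oxidation genes. Of 19 tested from that list, 3 rose (Vdac1, Polg and Mfn1), 1 fell (the citrate synthase gene Cs) and 15 did not pass, with a median log2 fold change of 0.12, against 1.75 for the 32 oxidation and ketone body genes. With library totals the same list had 0 higher, 13 lower and a median of -0.73. On TMM factors 22.2% of all genes tested rose and 21.7% fell, with a median of -0.09. With library totals 9.2% of all genes rose and 59.5% fell, with a median of -0.92. The medians of the mitochondrial list thus lay near those of all genes tested.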

How the data were processed

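Counts per gene, FPKM and exon length of 6 rat liver libraries came from a single deposited table. Its columns read ZGM where the sample titles read GZM, and were matched to the titles by their letters and replicate number, so every GZM value rests on that match. Per the labels' protocols, poly(A) RNA was made into strand-marking paired-end libraries. The submitters' processing notes name the build mRatBN7.2. The table's positions run past the end of a chromosome of that build, so no position from it is printed. No aligner or counter is named (not given in the sources used here). The authors deposited raw counts and, per the file headers, FPKM, and all 195738 FPKM values were recomputed within 0.01 from the count, the library total and the deposited exon length (other unit: bases).

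Counts were tested with edgeR 4.0.16 (quasi-likelihood, TMM factors, filterByExpr, Benjamini-Hochberg adjustment over 14298 genes, threshold 0.05) in R 4.3.3, after a check on simulated data. That check changed few genes, equally up and down, so it does not bear on how libraries should be scaled here. Standard errors are on the log2 scale. Within-library ratios used a pseudocount of 0.5 counts and exact permutation tests. Alternatives were library totals, median-of-ratios factors, no low-count filter, DESeq2 1.42.0, a replicate block, and leaving out libraries. The genes, the lists and the rule (all 34 genes plus 16 others of the pathway list, some of which are not reported here) were chosen with earlier results of these data known. The motif AGGTCA alone was added after the data were seen. Replicate libraries of a group differed by more than counting noise (chi-square over its degrees of freedom 11.2 to 209).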

Additional observations from a re-analysis of the deposited data

How the results depend on the processing

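With library totals 1315 genes rose and 8513 fell over the whole table, and 8 genes of the pathway list fell. Of the 32 genes 4 turned sign on that scale, the called Acsl3 (-0.27) and Acsl5 (-0.21) and the uncalled Acad9 (-0.46) and Bdh2 (-0.25). Of the 47 tested pathway genes 10 turned, with the called Crat and Acsl4 and the uncalled Ppargc1a (-0.018), Acaca (-0.71) and Slc16a1 (-0.41) among them, and of 19 mitochondrial mass and import genes 12, with the called Vdac1, Polg and Mfn1 among them. Cpt1b, which was not called, turned to 0.0052 with the replicate block, 0.23 without GM 2, 0.04 without GM 3 and 0.18 without GZM 3, and ran from -0.28 to 0.23 over the libraries left out. Acaca ran from -0.025 (without GZM 3) to 0.21 over the libraries left out. Leaving out 1 library gave 2112 to 3592 genes higher and 1665 to 3432 lower over the table, with the lowest of both without GZM 2, and 1954 lower without GZM 3. The hepatocyte list had 12 to 23 higher, with the lowest without GM 1, and the pathway list 1 to 2 lower. The 32 genes had 27 higher and 1 lower with DESeq2 and with median-of-ratios factors, and 25 and 1 with no low-count filter. The cause of these shifts was not tested.

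The labels do not say that equal replicate numbers pair the libraries. Deviations of same-numbered libraries from their group means correlated at -0.14, 0.16 and -0.27. Those of libraries with different numbers ran from -0.22 to 0.298. With 3 libraries per group the deviations depend on each other, so these values cannot decide whether the libraries were paired. With a replicate block 26 of the 32 genes rose and 1 fell, against 2676 and 2490 genes over the table, and Acsl5 lost its call (adjusted p = 0.0937 by edgeR) while Angptl4 passed (adjusted p = 0.0476 by edgeR). Echs1, with 8 to 23 counts a library, had the largest standard error of the 32 genes.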
